A study of Noccaea goesingensis with 12 samples.

Results

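In the roots of *Noccaea goesingensis*, 10 genes had the higher value in one ecotype without Ni and in the other ecotype with Ni. They were chosen by these same values: a gene was taken when both tables listed it, the one with Ni and the one without Ni, when all 4 group values were above 0, and when the order of TM and NTM with Ni was opposite to that without Ni. Of the 1115 genes in both tables with 4 values above 0, 11 met this rule, and 1 of these 11 is given only among the other observations. The order and size of the ecotype differences below are therefore a description of the genes chosen and carry no test.

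Libraries were made from TM Ni roots (2 libraries), NTM Ni roots (3), TM control roots (4) and NTM control roots (3), with RNA of 5 plants in each library according to the labels. The number of plants reported as frozen per group would not be enough for the 4 TM control libraries, the methods state a single sample number without differences between groups, and the replicate number in the title of a TM Ni library is unclear. These differences were not resolved. TM plants were grown from seed of a serpentinite population (metallicolous ecotype) and NTM plants from seed of a dolomite population (non-metallicolous ecotype), each collected from several wild plants, so that the ecotypes are populations and not inbred lines. Ni plants received nickel sulphate in the nutrient solution for 3 weeks, and control plants the same nutrient solution without it. The age of the plants is not given, since the growth times in the sample labels and in the methods differ.

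A hyperaccumulator such as *N. goesingensis* takes up metal through the root and moves it to the shoot, where it is stored. Serpentine soils are rich in Ni, and populations from such soils and from other soils of the same species can differ in tolerance. When populations are compared in more than one environment, a difference may keep its direction, change in size, or change its direction. The last case, in which the lines that join the values of each population across environments cross, is called a crossing reaction norm.

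Each value is the single value that the authors deposited for a whole group of libraries, in FPKM (a unit scaled to gene length and sequencing depth). The column headers of the group files read TPM, and the values are called FPKM as in the methods, although which unit holds was not settled. Values of single libraries were not used, so that no replicate error, interval or test was computed for any difference. Every listed gene had a p-value of the authors' own test of TM against NTM below 0.05, and those p-values were not used further. The depth behind a value is unknown from the tables. A single NTM Ni library had far fewer aligned reads than all others, and its part in the values was not tested. Reads of *N. goesingensis* were aligned to the *A. thaliana* genome, so each identifier stands for an *A. thaliana* gene model, and reads of several related *Noccaea* genes may fall on the same model. The tables pair these identifiers with no gene names, and no function is given here for them. In whole roots, fewer cells of a type and less RNA per cell cannot be told apart.

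The tables list 1944 genes with Ni and 4460 genes without Ni, and 1131 genes are in both. Of these 1131 genes, 1119 had the same order in both states, with TM higher in 431 and NTM higher in 688. The genes that reversed were 0.987% of the genes with 4 values above 0, and this share is the one the rule fixes. Since a gene had to be listed in both states, genes with a small ecotype difference in either state could not enter. When the 4 groups were scaled to a common median ratio, 6 of the 10 genes still reversed and 4 did not, namely AT5G19920, AT3G19320, AT1G74210 and AT3G07960. Among the 6, AT1G73020 kept its order only narrowly, with a scaled log2 ratio of TM over NTM with Ni of -0.07. Over all 1115 genes, 131 reversed after this scaling in place of 11. This scaling brings the median ecotype difference of the listed genes close to 0, where it was -1.09 with Ni and -0.88 without Ni on the log2 scale of TM over NTM, and the listed genes are more often lower in TM.

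**Figure D1:**
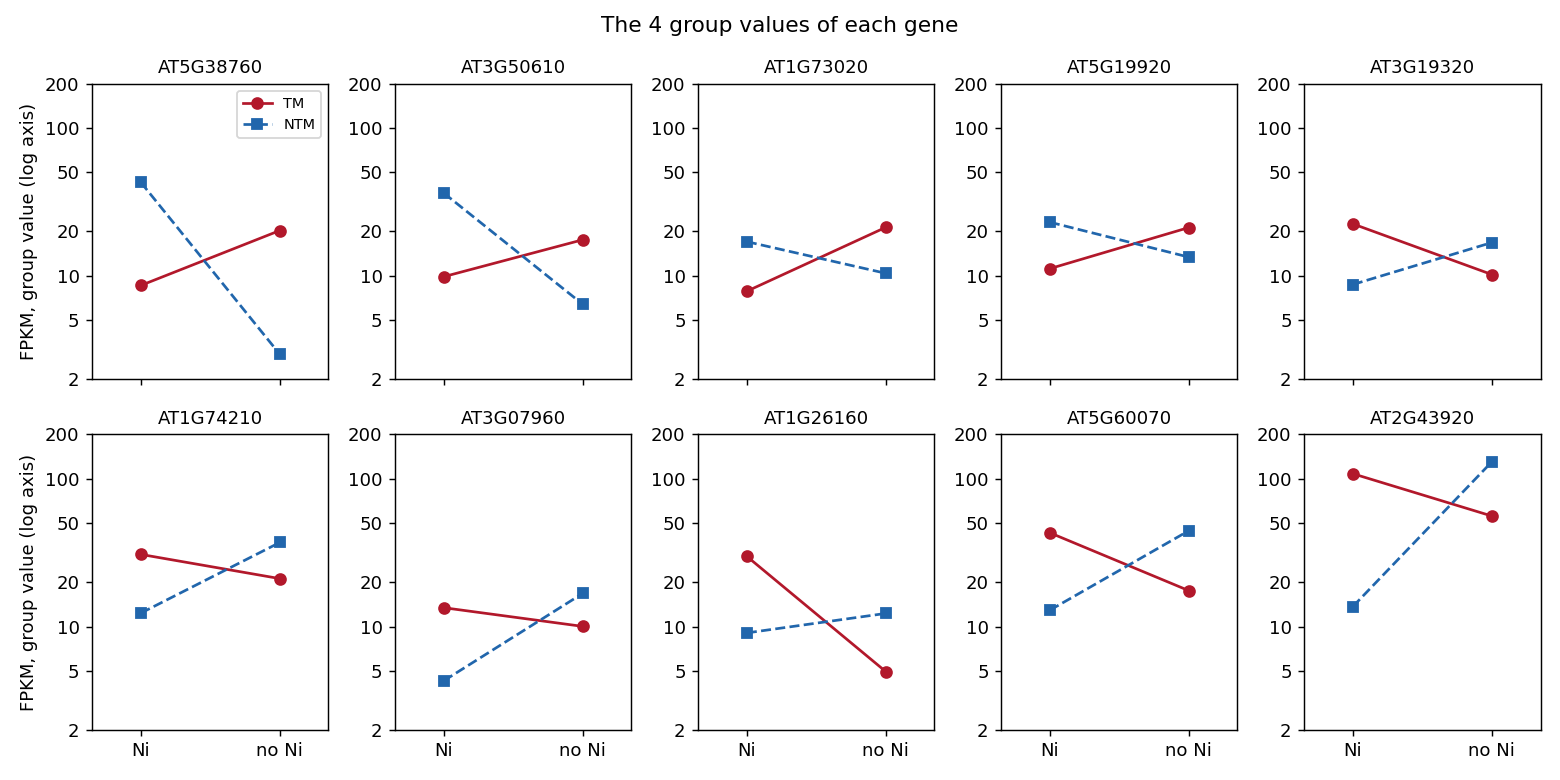
Group values in FPKM (log axis) of the 10 genes with Ni (left) and without Ni (right), for TM (circles, solid line) and NTM (squares, dashed line). Each point is 1 deposited group value without an error, the lines join the states of an ecotype, and the lines cross in all 10 panels, although after median ratio scaling 4 of the genes (AT5G19920, AT3G19320, AT1G74210 and AT3G07960) no longer reverse.

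In 4 genes NTM was higher with Ni and TM was higher without Ni. The gene with the widest change was AT5G38760, on chromosome 5 from 15524178 to 15524977 (TAIR10). With Ni it stood at 8.58 FPKM in TM and 42.9 FPKM in NTM, and without Ni at 20.2 FPKM in TM and 2.93 FPKM in NTM. The NTM groups thus held both its highest and its lowest value, and the highest was 14.6 times the lowest. The log2 ratio of TM over NTM was -2.31 with Ni and 2.74 without Ni, after adding 0.1 FPKM to each value as for all log2 ratios given here. The difference of these ratios, -5.05, was the widest in size among the 1115 genes.

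AT3G50610 (chromosome 3 from 18779723 to 18780412) had the same order of its 4 values as AT5G38760. With Ni it stood at 9.84 FPKM in TM and 36.2 FPKM in NTM, and without Ni at 17.5 FPKM in TM and 6.39 FPKM in NTM. The log2 ratio of TM over NTM was -1.87 with Ni and 1.44 without Ni. With Ni the TM value was lower and the NTM value higher than without it, and the NTM values were further apart than the TM values.

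The other two genes of this kind were AT1G73020 and AT5G19920, and their TM values were further apart than their NTM values. AT1G73020 (chromosome 1 from 27469534 to 27473554) stood at 7.84 FPKM in TM and 17.0 FPKM in NTM with Ni, and at 21.3 FPKM in TM and 10.4 FPKM in NTM without Ni. Its highest and its lowest value were both those of TM as deposited. After median ratio scaling its lowest value was that of NTM control, at 7.96 against 11.0 in TM Ni. AT5G19920 (chromosome 5 from 6733216 to 6737373) stood at 11.2 FPKM in TM and 23.0 FPKM in NTM with Ni, and at 21.2 FPKM in TM and 13.4 FPKM in NTM without Ni. The 4 values of AT5G19920 were the closest together of all 10 genes, with a highest value 2.06 times the lowest, and its log2 ratio of TM over NTM was -1.04 with Ni and 0.66 without Ni. After median ratio scaling the ratio with Ni was 0.0018, close to equal values of the ecotypes in that state.

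In the other 6 genes TM was higher with Ni and NTM was higher without Ni. AT2G43920 (chromosome 2 from 18189008 to 18191348) had the highest level of the 10 genes. With Ni it stood at 108 FPKM in TM and 13.7 FPKM in NTM, and without Ni at 56.0 FPKM in TM and 131 FPKM in NTM. The NTM Ni value was far below the other 3, and the highest value, that of NTM control, was 9.57 times as high. After median ratio scaling the highest value of AT2G43920 was that of TM Ni, at 152 against 100 in NTM control. Its log2 ratio of TM over NTM was 2.98 with Ni and -1.22 without Ni, and the difference of 4.20 was second in size only to that of AT5G38760.

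AT1G74210 and AT3G07960 had the most similar patterns of any pair among the 10 genes. AT1G74210 (chromosome 1 from 27910314 to 27912941) stood at 30.8 FPKM in TM and 12.3 FPKM in NTM with Ni, and at 21.1 FPKM in TM and 37.1 FPKM in NTM without Ni. AT3G07960 (chromosome 3 from 2534887 to 2538372) stood at 13.4 FPKM in TM and 4.29 FPKM in NTM with Ni, and at 10.0 FPKM in TM and 16.8 FPKM in NTM without Ni. In both genes the highest value was that of NTM control and the lowest that of NTM Ni, with the TM values between them. After median ratio scaling the highest value of both genes was that of TM Ni. Without Ni their log2 ratios of TM over NTM were modest, -0.81 for AT1G74210 and -0.74 for AT3G07960, and turned to 0.013 and 0.082 after median ratio scaling.

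AT5G60070 (chromosome 5 from 24190440 to 24192894) came close to an exchange of values between the ecotypes in the values as deposited. With Ni it stood at 43.2 FPKM in TM and 12.9 FPKM in NTM, and without Ni at 17.5 FPKM in TM and 44.6 FPKM in NTM. The TM Ni value was 96.8% of the NTM control value, and the NTM Ni value 73.8% of the TM control value. After median ratio scaling these pairs were further apart. TM Ni was then at 60.5 against 34.2 in NTM control, and NTM Ni at 8.75 against 23.8 in TM control. AT3G19320 (chromosome 3 from 6696395 to 6698073) had a similar pattern with smaller differences, at 22.4 FPKM in TM and 8.71 FPKM in NTM with Ni and at 10.2 FPKM in TM and 16.8 FPKM in NTM without Ni. The log2 ratio of AT3G19320 without Ni was -0.71 and turned to 0.11 after median ratio scaling.

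AT1G26160 (chromosome 1 from 9044441 to 9046979) was the gene in which the TM ecotype moved most. With Ni it stood at 29.9 FPKM in TM and 9.05 FPKM in NTM, and without Ni at 4.95 FPKM in TM and 12.3 FPKM in NTM. The TM groups held its highest and its lowest value as deposited, and the NTM values were close to each other. After median ratio scaling its lowest value was that of NTM Ni, at 6.14 against 6.73 in TM control. No other gene of both tables with 4 values above 0 had a TM change with Ni as large as that of AT1G26160 on the log2 scale.

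**Figure D2:**
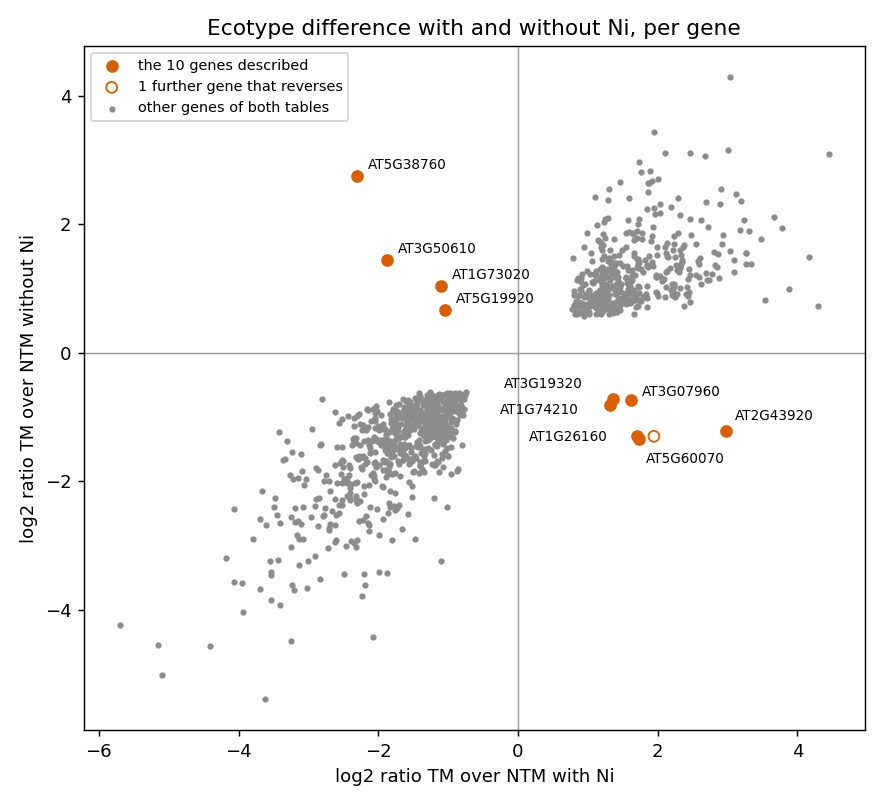
Log2 ratio of TM over NTM with Ni (horizontal) against the same ratio without Ni (vertical), with 0.1 FPKM added to each value, for the 1115 genes with 4 values above 0. The genes described (filled orange) lie in the upper left (4 genes) and lower right (6 genes), where the ratio has opposite signs (6 of the 10 also after median ratio scaling), and the open circle is the further gene that reverses.

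The rule has its limit where the ecotypes are equal in one state. Nearest to it among the 10 genes were AT5G19920 and AT3G19320, whose log2 ratios without Ni were 0.66 and -0.71. Just outside it were AT1G55360 and AT5G62560, with TM higher in both states. AT1G55360 stood at 163 FPKM in TM and 84.9 FPKM in NTM with Ni and at 141 FPKM in TM and 94.9 FPKM in NTM without Ni, a log2 ratio of 0.57 without Ni. AT5G62560 stood at 81.7 FPKM in TM and 46.3 FPKM in NTM with Ni and at 85.1 FPKM in TM and 56.2 FPKM in NTM without Ni, a log2 ratio of 0.60 without Ni. In the values as deposited, no gene of both tables with 4 values above 0 had a ratio closer to 0 in either state. The plot of ecotype ratios shows this by its empty centre. All listed genes had p below 0.05 in the authors' own test, which leaves out small differences, so that this gap was fixed beforehand. After median ratio scaling other genes lie nearer to equal values, and AT1G55360 and AT5G62560 lie further from them.

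The Ni change within each ecotype was formed from the same 4 values, dividing the Ni value by the control value on the log2 scale, across the tables with Ni and without Ni. Values with Ni and without Ni were taken as normalized separately. A difference in scaling between the states therefore cannot be told apart from a Ni change. In all 10 genes the changes of TM and NTM had opposite signs, also after median ratio scaling. Among the 1115 genes, 48.2% had changes of opposite sign. A reversal can be reached with changes of the same sign, but the rule makes opposite signs more frequent, so that nothing is read from this share.

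In NTM, the Ni change passed 1 on the log2 scale in 6 of the 10 genes, beside 8.13% of the 1131 genes in both tables. Upward it was passed by AT5G38760 (3.83) and AT3G50610 (2.49), beside 2.48% of all genes. Downward it was passed by AT2G43920 (-3.25), AT3G07960 (-1.94), AT5G60070 (-1.78) and AT1G74210 (-1.58), beside 5.66% of all genes. Over all 1131 genes this was 28 upward and 64 downward, and 15 and 96 after median ratio scaling. The NTM changes of AT3G19320 (-0.94), AT5G19920 (0.78), AT1G73020 (0.71) and AT1G26160 (-0.43) did not pass 1. After median ratio scaling AT3G19320 passed it downward (-1.11), which made 7 of the 10 genes, beside 9.81% of the 1131 genes.

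In TM, the Ni change passed 1 in 5 of the 10 genes, beside 4.6% of the 1131 genes. Upward these were AT1G26160 (2.57), AT5G60070 (1.30) and AT3G19320 (1.13), beside 2.56% of all genes, and downward AT1G73020 (-1.43) and AT5G38760 (-1.23), beside 2.03% of all genes. The TM changes of AT2G43920 (0.95), AT5G19920 (-0.92), AT3G50610 (-0.82), AT1G74210 (0.54) and AT3G07960 (0.42) did not pass 1. AT5G38760 and AT5G60070 passed 1 in both ecotypes in opposite directions, as 0.354% of all genes did, and AT5G19920 passed it in neither. All these shares come from the values that the rule used, and are given beside the counts without a reading.

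**Figure D3:**
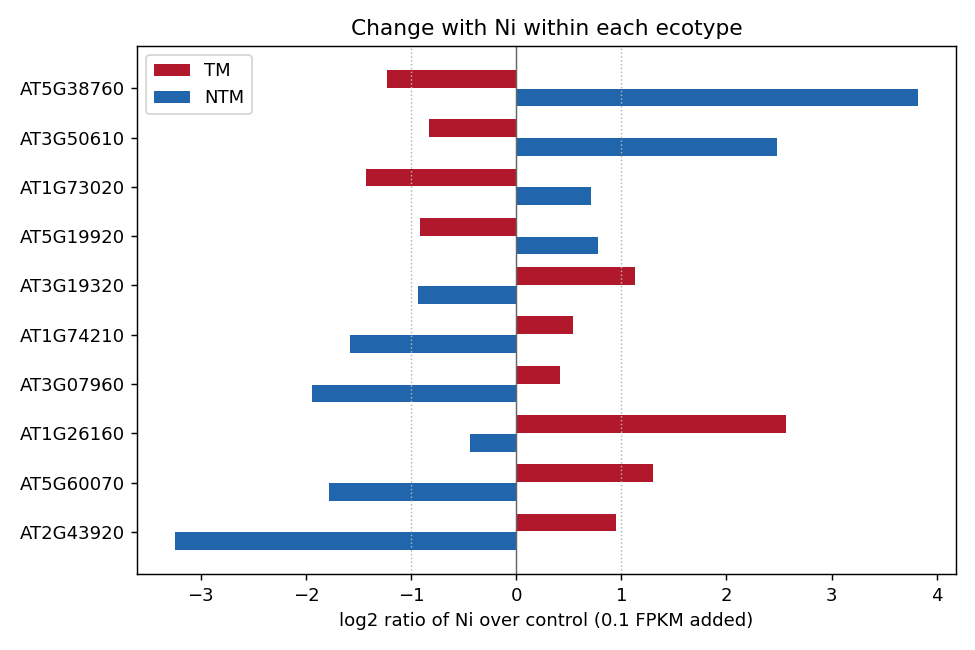
Log2 ratio of Ni over control in TM (red, upper bar) and NTM (blue, lower bar) for the 10 genes, with 0.1 FPKM added to each value and dotted lines at -1 and 1. The bars of each gene point in opposite directions, and the NTM bar is the longer one in 6 genes and the TM bar in 4, beside 634 and 481 of the 1115 genes with 4 values above 0.

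The NTM change was the larger one in 6 of the 10 genes (AT5G38760, AT3G50610, AT1G74210, AT3G07960, AT5G60070 and AT2G43920) and the TM change in 4 (AT1G73020, AT5G19920, AT3G19320 and AT1G26160), beside 634 and 481 of the 1115 genes. With TM held at its control value, the NTM change alone would have reversed the order in 8 genes, beside 9 of the 1115. With NTM held at its control value, the TM change alone would have done so in 4, beside 6 of the 1115. AT5G19920 and AT3G19320 were in both counts, so either change sufficed for them. For AT1G26160 and AT1G73020 only the TM change sufficed as deposited. After median ratio scaling the counts over the 10 genes were 5 for NTM and 3 for TM, in part for other genes. AT1G26160 then reversed also by the NTM change alone, with NTM Ni at 6.14 and TM control at 6.73. AT1G73020 reversed by neither change alone, with TM Ni at 11.0 above NTM control at 7.96 and NTM Ni at 11.5 below TM control at 28.9. The lowest of the 4 values was that of NTM Ni in 5 of the 10 genes, beside 326 of the 1115. The highest was that of NTM Ni in 3, beside 512 of the 1115, and that of NTM control in 4, beside 174 of the 1115. The last 4 were AT1G74210, AT3G07960, AT5G60070 and AT2G43920, and after median ratio scaling their highest value was that of TM Ni. AT5G19920 then had its highest value in TM control (28.8) and no longer in NTM Ni (15.6). The lowest value of AT1G26160 was then that of NTM Ni (6.14) and no longer that of TM control (6.73). These counts come from the values that the rule used and are a description.

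Where the ecotypes moved in opposite directions, their mean Ni change could stay near 0. This mean was -0.07 on the log2 scale for AT5G19920, 0.10 for AT3G19320 and -0.24 for AT5G60070. It was 1.30 for AT5G38760, 1.07 for AT1G26160 and 0.83 for AT3G50610, whose values with Ni were higher on average over both ecotypes, and -1.15 for AT2G43920. Its size had a median of 0.64 over the 10 genes and 0.22 over the 1115 genes. The change of the ecotype ratio itself was 1.70 to 5.05 in size over the 10 genes with a median of 2.68, beside a median of 0.41 over the 1115 genes. It ranked between 1 and 30 among the 1115. A wide change was not enough for a reversal. AT1G18990, a gene named here after its values were seen, ranked 3 with 22.3 FPKM in TM and 1.04 FPKM in NTM with Ni, against 19.3 FPKM in TM and 11.6 FPKM in NTM without Ni, and was higher in TM in both states.

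**Figure D4:**
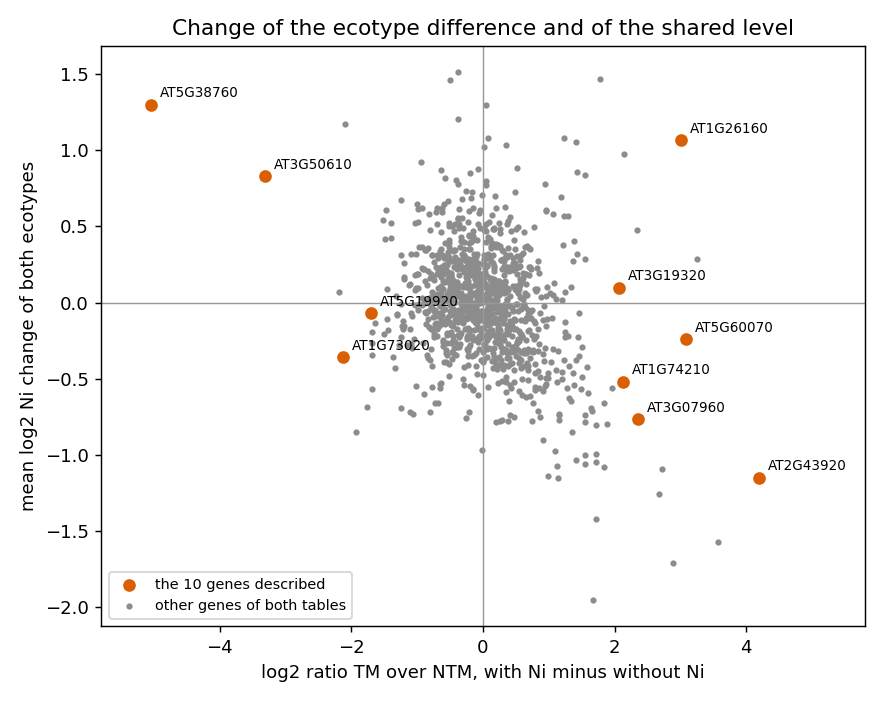
Change of the log2 ratio of TM over NTM, with Ni minus without Ni (horizontal), against the mean log2 Ni change of both ecotypes (vertical), for the 1115 genes with 4 values above 0. The 10 genes (orange) lie between 1.70 and 5.05 in size on the horizontal axis, with AT5G38760 at the far left and AT2G43920 at the far right, and on both sides of 0 on the vertical axis.

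The level of the genes comes from the values that the rule used. The mean of the 4 values was 11.1 to 77.2 FPKM over the 10 genes with a median of 17.3 FPKM, beside a median of 31.8 FPKM over the 1115 genes, and only AT2G43920 exceeded this last value. Length and position of the loci were not used by the rule. The loci were 690 to 4158 bp long with a median of 2497 bp, beside a median of 1938 bp over the 1115 genes, and the shortest were those of AT3G50610 and AT5G38760 (800 bp). The genes lie on chromosomes 1 (3 genes), 2 (1), 3 (3) and 5 (3), and 0 on chromosome 4. Of the 1115 genes, chromosome 1 held 295, chromosome 2 178, chromosome 3 198, chromosome 4 170 and chromosome 5 273.

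Within 10 kb of the 10 genes, 11 other listed genes were found beside 7 of them. None of these loci overlapped one of the 10. Only 2 of them were in both tables, where a reversal could be seen, and none of those reversed in the values as deposited. The closest was AT5G19910, 225 bp from AT5G19920, which was listed without Ni at 24.2 FPKM in TM and 10.5 FPKM in NTM, the same order as AT5G19920 in that state. AT3G07950, 382 bp from AT3G07960, was listed without Ni at 24.3 FPKM in TM and 43.4 FPKM in NTM, again in the order of its neighbour. AT3G19340, 1249 bp from AT3G19320, was in both tables, at 43.6 FPKM in TM and 93.0 FPKM in NTM with Ni and at 55.0 FPKM in TM and 86.9 FPKM in NTM without Ni, and so had the order of AT3G19320 only without Ni. AT2G43910, 1979 bp from AT2G43920, was listed with Ni at 115 FPKM in TM and 32.1 FPKM in NTM, where AT2G43920 was also higher in TM. Over the 11 genes, 13 ecotype comparisons were listed. In the values as deposited, 8 of them had the order of the neighbouring gene and 5 the other order. The same count was not made for neighbours of other genes, so that nothing is read from it. AT5G38780, AT1G73010 and AT3G19350 were each listed only without Ni, in the order opposite to that of AT5G38760, AT1G73020 and AT3G19320. Only AT5G19890 and AT3G19340 were in both tables, and each kept NTM higher in both states as deposited. After median ratio scaling AT3G19340 reversed narrowly, with NTM higher with Ni and TM higher without Ni, while AT3G19320 no longer did.

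Likeness of pattern was measured as the distance between the 4 log2 values of 2 genes, each centred on the mean of its own gene, over 4 groups. AT1G74210 and AT3G07960 were 0.34 apart and AT1G73020 and AT5G19920 0.40, while AT5G38760 and AT2G43920 were the farthest apart at 5.31. Outside the 10, AT2G05070 was the nearest gene to AT5G60070 (0.55), AT3G19320 (0.64), AT1G26160 (0.81) and AT1G74210 (1.00), and it is the further gene that met the rule. The nearest genes to the other 6 did not reverse in the values as deposited. These were AT4G14060 for AT5G19920 (0.93), AT3G43800 for AT3G07960 (1.03), AT2G47000 for AT1G73020 (1.19), AT2G36550 for AT2G43920 (1.50), AT1G78070 for AT3G50610 (1.60) and AT3G05950 for AT5G38760 (2.51). After median ratio scaling AT1G78070 and AT3G05950 do reverse, with NTM higher with Ni and TM higher without Ni. With 4 values per gene, such distances describe the values and no more.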

How the data were processed

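RNA-seq of 12 root libraries in 4 groups was used. According to the submitters' processing notes and the methods, the authors trimmed reads with cutadapt 1.8.1, aligned them with HISAT2 2.1.0 at default settings to the *A. thaliana* genome (TAIR10), and ran Cuffdiff of Cufflinks 2.2.1. The authors deposited 1 value per group, which the methods give as FPKM scaled by geometric normalization and the headers of the group files as TPM. Which unit holds was not settled. The tables also hold the authors' log2 fold change and unadjusted p-value of TM against NTM. Neither was used, except to check that every deposited p-value lies below 0.05. Values of the group files and the comparison tables were identical (0 differing). Each of the 8 columns of values belongs to 1 group, and 0 such columns were unassigned.

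The members and lists were chosen with earlier results of these data known. Log2 ratios were computed after adding 0.1 FPKM and set beside all genes of both tables, with a threshold of 1 and without a test. The 10 genes, the gene nearest to each in pattern and the 2 genes closest to the limit of the rule were named, and other genes after their values were seen. A list of 32 candidate relatives held 8 listed genes, 0 of them in both tables, and is not described as a list, as no gene annotation was used. AT2G43910 is on this list and is given above only as a neighbour of AT2G43920. The label of the tissue could not be checked from tables of differing genes only: 4 of 8 root markers and 2 of 5 green tissue markers were listed. Locus starts are counted from 1. Alternatives were a pseudocount of 1, scaling of the groups by their median ratio, at least 1 FPKM in every group and a threshold of 2. Python 3.11.15, numpy 2.4.6, pandas 2.3.3 and matplotlib 3.10.9 were used.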

Additional observations from a re-analysis of the deposited data

How the results depend on the processing

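Median ratio scaling moved the results most. It gave 131 genes that reversed in place of 11, of which 7 reversed as deposited, and it turned the log2 ratio of TM over NTM with Ni of AT5G19920 to 0.0018 and those without Ni of AT3G19320, AT1G74210 and AT3G07960 to 0.11, 0.013 and 0.082. It brings the median ecotype ratio of the listed genes close to 0. Under it, the NTM change alone reversed 5 of the 10 genes in place of 8. Requiring a log2 ratio past 1 in both states left 7 reversing genes. A threshold of 2 left 3 of the 10 genes in NTM, beside 1.59% of the 1131 genes, and 1 in TM, beside 0.442%. With a pseudocount of 1, 40 of 40 ratios of the 10 genes moved by less than a factor of 1.5. The alternatives on genes listed at 0 and on the change of one ecotype alone were chosen after seeing the data. No paired analysis was possible because each group has 1 value, and for the same reason no library could be left out.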

Other observations

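Beside the 10 genes, another 2 had opposite orders in the 2 states, and they are named after their values were seen. AT2G05070 (chromosome 2 from 1799234 to 1800392) stood at 15.0 FPKM in TM and 3.81 FPKM in NTM with Ni, and at 3.91 FPKM in TM and 9.79 FPKM in NTM without Ni. Its log2 ratio of TM over NTM was 1.95 with Ni and -1.30 without Ni, and its Ni change was 1.91 in TM and -1.34 in NTM. AT4G05340 (chromosome 4 from 2725690 to 2726065) stood at 8.67 FPKM in TM with Ni and was listed at 0 in NTM with Ni, and it stood at 4.88 FPKM in TM and 44.2 FPKM in NTM without Ni. Its locus is 376 bp long, and no ratio is given against a group listed at 0.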
